A study of Drosophila melanogaster with 42 samples.

Results

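The genes of muscle structure and contraction were examined in adult heads and in the dissected central nervous system (CNS) of Drosophila melanogaster, across 8 two-colour microarray comparisons of the somatic sex hierarchy. The genes were chosen by name, as encoding parts of the sarcomere, its Z-disc, its calcium control or the attachment of muscle. The rule uses no measured value, but earlier results of these data were known when the genes were chosen. Of 34 listed genes, 27 had a probe, out of 12164 genes on the array, and they were read by 37 of the 16320 probes, 12912 of which carry a gene symbol. The genes Mhc, wupA, TpnC47D, TpnC25D, Tm1, Act57B and Unc-89 had no probe under their names and were not analysed here.

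The 42 arrays each set 2 RNA samples against each other, and the deposited value is the log2 ratio between them. The heads of females and males of the wild-type strains Canton S and Berlin were compared on 8 arrays, and the CNS of Canton S females and males on 4. Canton S females were set against 3 chromosomally XX mutants on 4 head arrays each. These were tra pseudomales (tra1/Df(3L)st-j7), dsxD pseudomales (dsxD,Sb/dsxm+r15) and dsx null animals (dsxd+r3/dsxm+r15), whose X chromosome carries y, w and the transgene P[w+cM,ubi-gfp], over w alone on the other X in both pseudomales. Canton S males were set against XY dsx null animals of the same dsx alleles on 4 head arrays. Males that lack the products of the fru P1 promoter were compared with wild-type males on 8 head and 6 CNS arrays. Of these, fru4-40/frup14 males, which also lack the transcripts of a further fru promoter, were set against Canton S, and w; fruw12/frucham5 males against w; Berlin, so that allele and control strain cannot be told apart. All fru males carried a pair of different deficiency chromosomes and may be hemizygous for genes close to fru, and the mutants set against Canton S differed from it also in genetic background. The flies were aged 0 to 24 h by the labels and 8 to 24 h by the protocol, and each sample pooled about 100 heads or about 20 brains with ventral nerve cords. Ratios are given as female over male, as wild type over mutant for tra, dsxD and dsx null, and as mutant over wild type for fru.

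Muscle contracts by the sliding of myosin-based thick filaments along actin-based thin filaments, which are anchored at the Z-disc. Calcium released from the sarcoplasmic reticulum binds troponin C on the thin filament, and the troponin and tropomyosin complex then lets myosin reach actin. Insects express many of these proteins as isoforms of particular muscle types. Act88F, flightin and TpnC4 belong to the indirect flight muscles of the thorax, whereas Act79B and TpnC41C are known from tubular muscles such as those of the legs and the jump muscle. The adult head holds muscles of the proboscis, pharynx and antennae, while the dissected brain and nerve cord should hold little muscle.

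Every array gave values for 5881 to 11900 probes, and the medians of the arrays lay between -0.08 and 0.04. The muscle probes were among the better detected ones, with a value present in 90.1% of cases on head arrays and 79.2% on CNS arrays, against 55.9% and 54.4% for all probes. In heads, 20 of the 37 probes had a value on all 32 arrays. In the CNS, 23 had a value on all 10 arrays. The probes of fln and TpnC4 and one of the 2 for Strn-Mlck (probe 4919) were measured on 10, 11 and 4 head arrays but on all CNS arrays, and the probe of Mlp60A, Tm2 probe 8028 and Zasp52 probe 14434 had no value in the CNS. CNS samples were amplified before labelling and head samples were not, so that detection in the 2 tissues cannot be compared directly. Neuron and glia markers were present in 96.6% and 96.1% of cases in heads and in 81.0% and 98.8% in the CNS. The labels were checked on the yolk protein gene Yp1, which was on the side of the females or wild-type females on every array of the sex, tra, dsxD and XX dsx null comparisons in heads (log2 ratios of 1.10 to 8.64), and of the XY dsx null animals on all 4 arrays of theirs (-6.33 to -3.27), and on fru probe 16173, which was lower in the fru mutant on all 8 head arrays (-1.36 to -0.15).

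**Figure D1:**
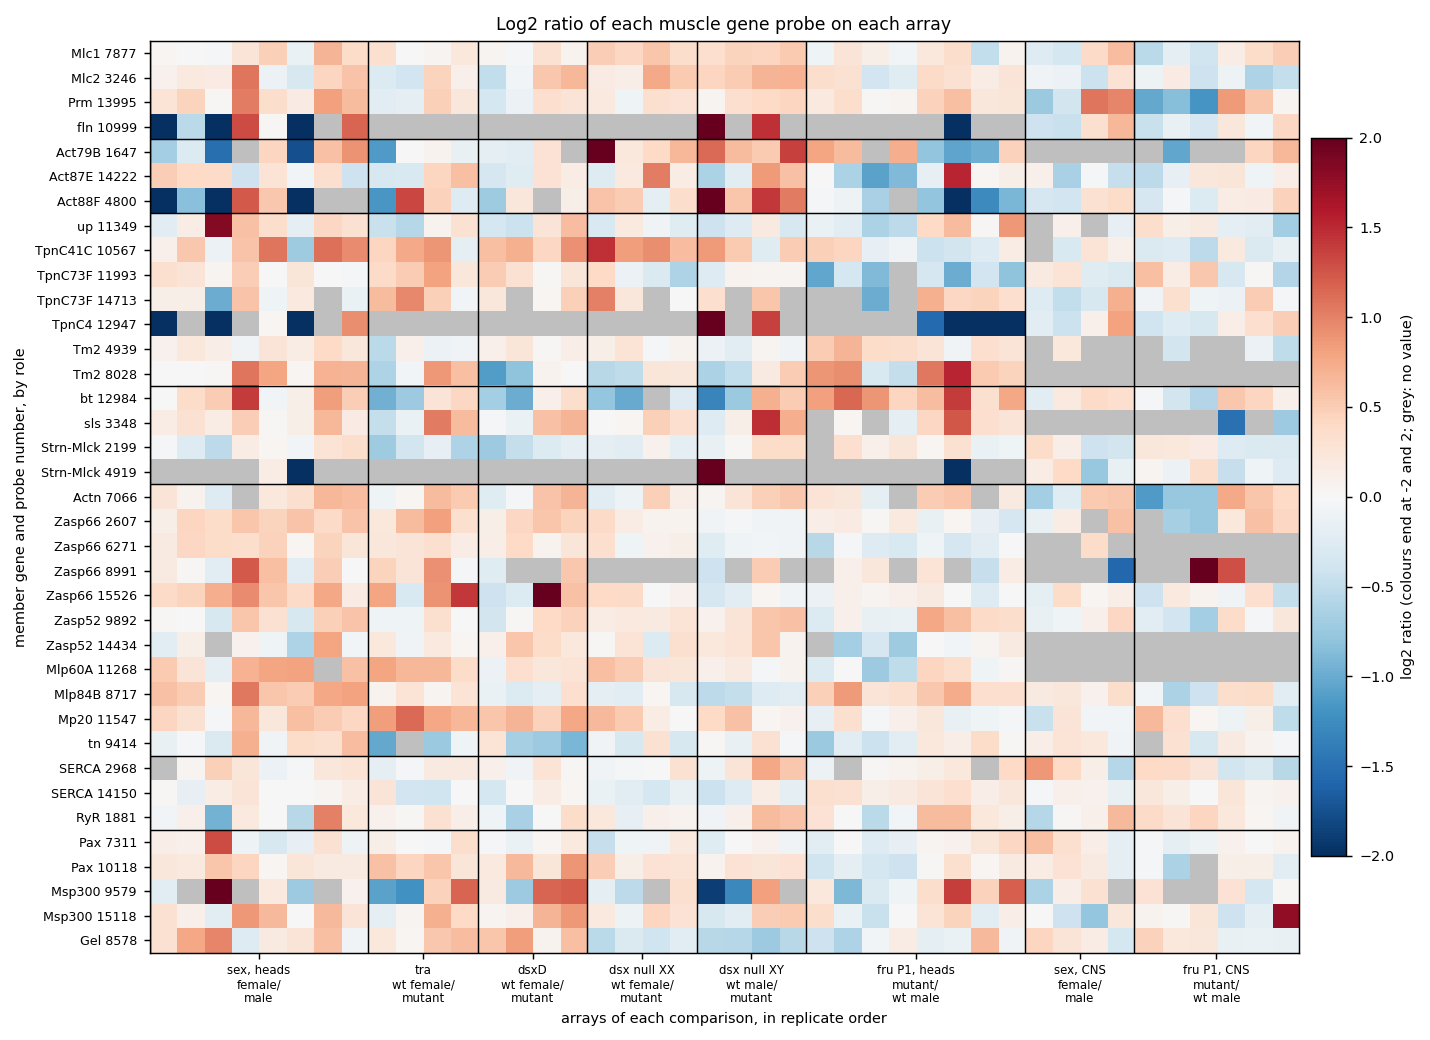
Log2 ratio of the 37 muscle probes (rows, by role) on each of the 42 arrays (columns, in replicate order within each comparison), with the direction of the ratio under each comparison (wt, wild type); red is positive, blue negative, grey no value, and colours end at -2 and 2. The rows of fln, Act88F, TpnC4 and Strn-Mlck probe 4919 hold most of the cells at the ends of the scale.

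The first question was which muscle genes differ between female and male heads. Probes measured on 6 or more of the 8 arrays entered limma's moderated test of the mean log2 ratio against 0 and were called at a Benjamini-Hochberg adjusted p under 0.15 over all tested probes, the threshold used throughout. Of 34 muscle probes tested, 11 probes of 9 genes were called higher in females and 0 lower, where 5.1% and 3.98% of all 8135 tested probes were called. The median log2 ratio of the 34 probes was 0.25, against -0.0042 for all. Since these are whole heads, fewer muscle cells and less RNA per cell cannot be told apart here or in any comparison below.

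Of 11 tested probes grouped as Z-disc and LIM proteins 6 were called, 3 of them of the single gene Zasp66. Of 3 tested probes of giant and connecting proteins 2 were called. Actn, tn and both probes of Zasp52, also of the Z-disc group, were not called. Whether the calls gather in any group was not tested. Zasp66, a PDZ-domain protein of the Z-disc, was read by 4 probes (errors are limma's SE of the mean log2 ratio throughout). Probe 15526 ranged from 0.17 to 0.95 over 8 arrays (median 0.50, mean 0.55 ± 0.088, n = 8, adjusted p = 0.0067), probe 2607 from 0.12 to 0.57 (mean 0.43 ± 0.068, n = 8, adjusted p = 0.0063), and probe 6271 from 0.04 to 0.46 (mean 0.31 ± 0.068, n = 8, adjusted p = 0.031). These 3 probes were positive on every array, and the fourth, probe 8991, ran from -0.22 to 1.22 and was not called. Both muscle LIM proteins, which bind Z-disc components, were called. Mlp84B was positive on all 8 arrays, from 0.04 to 1.06 with a median of 0.57, and its mean of 0.60 ± 0.097 is 1.52-fold (adjusted p = 0.0067). Mlp60A had 7 values from -0.19 to 0.81, of which only the third Canton S array was negative, and a mean of 0.50 ± 0.116 (adjusted p = 0.048). Mp20, a calponin-like muscle protein, ranged from -0.04 to 0.66 with a mean of 0.39 ± 0.082 (n = 8, adjusted p = 0.029).

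Among the filament proteins, Prm, the paramyosin of the thick filament core, was positive on 8 of 8 arrays (0.02 to 1.02, mean 0.46 ± 0.107, adjusted p = 0.041). The titin-like projectin bt ranged from -0.05 to 1.40 (mean 0.46 ± 0.141, adjusted p = 0.11) and the titin-like sls from 0.03 to 0.66 (mean 0.26 ± 0.080, adjusted p = 0.11), both over 8 arrays. The tropomyosin gene Tm2 was called by its probe 8028 (mean 0.41 ± 0.131, n = 8, adjusted p = 0.12) and not by probe 4939 (mean 0.17 ± 0.066, adjusted p = 0.18). Pax, the focal adhesion protein paxillin, was called by probe 10118 (0.25 ± 0.070, n = 8, adjusted p = 0.080) and not by probe 7311 (0.15 ± 0.147). The calls of Prm, Zasp66, Mlp60A, Mlp84B and Mp20 were kept when any 1 array was left out. The other calls were lost in some refits while the means stayed close to those over all arrays. The sls probe lost its call in 5 of the 8 refits (without arrays 1, 2, 4, 6 or 7, means of 0.20 to 0.28), Tm2 in 4 (without 4, 5, 7 or 8, 0.32 to 0.37), bt in 3 (without 2, 7 or 8, 0.41 to 0.47) and Pax in 1 (without array 1, 0.26).

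The light chains and the calcium store were not called. Mlc1 and Mlc2, the essential and regulatory myosin light chains, averaged 0.21 ± 0.094 and 0.26 ± 0.129. The calcium pump SERCA averaged 0.16 and 0.06 in its 2 probes, and the calcium release channel RyR averaged -0.0038. The troponin T gene up and TpnC41C averaged 0.41 and 0.44 with SEs of 0.181 each. Taken within strains, with 4 arrays each, Berlin alone gave 8 called probes of 35, all higher in females, beside 2.83% higher and 1.1% lower of all 8808 probes. Canton S alone gave 0 of 34, where only 0.32% and 0.0949% of 8430 probes were called. The difference between the strains was tested directly and called 0 of 33 muscle probes, 1 of which had an unadjusted p under 0.05, and 0% of all probes. Markers of other cell types moved in the same comparison. In females, 5 of 10 fat body probes were called higher (list median 0.51, array medians of 0.09 to 1.71), 4 of 10 neuron probes lower (-0.22), 2 of 8 glia probes lower (-0.23) and 1 of 8 photoreceptor probes lower (-0.30). The part of these cell types in the muscle result was not tested.

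The largest ratios of all belonged to a few probes on single arrays. On arrays 1 and 3 of Canton S, Act88F, the flight muscle actin, stood at -4.91 and -5.27, which is 30.0-fold and 38.6-fold higher in the male sample. TpnC4, a troponin C of flight muscle, stood at -4.03 and -5.33 on the same arrays, and fln, the thick filament protein flightin, at -3.63 and -3.73. On the other 2 Canton S arrays fln read -0.53 and 1.31, and Act88F -0.84 and 1.23. In Berlin, array 6 alone was low, with -4.98 for fln, -4.59 for TpnC4, -3.77 for Act88F and -3.18 for Strn-Mlck probe 4919, whose gene encodes the titin-related Stretchin. The remaining Berlin values of fln were 0.02 and 1.17 and of TpnC4 0.04 and 0.92. Act88F thus passed 4-fold toward the male on 3 of the 6 arrays with a value, while its remaining values (-0.84, 1.23 and 0.54) lay on both sides of 0.

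**Figure D2:**
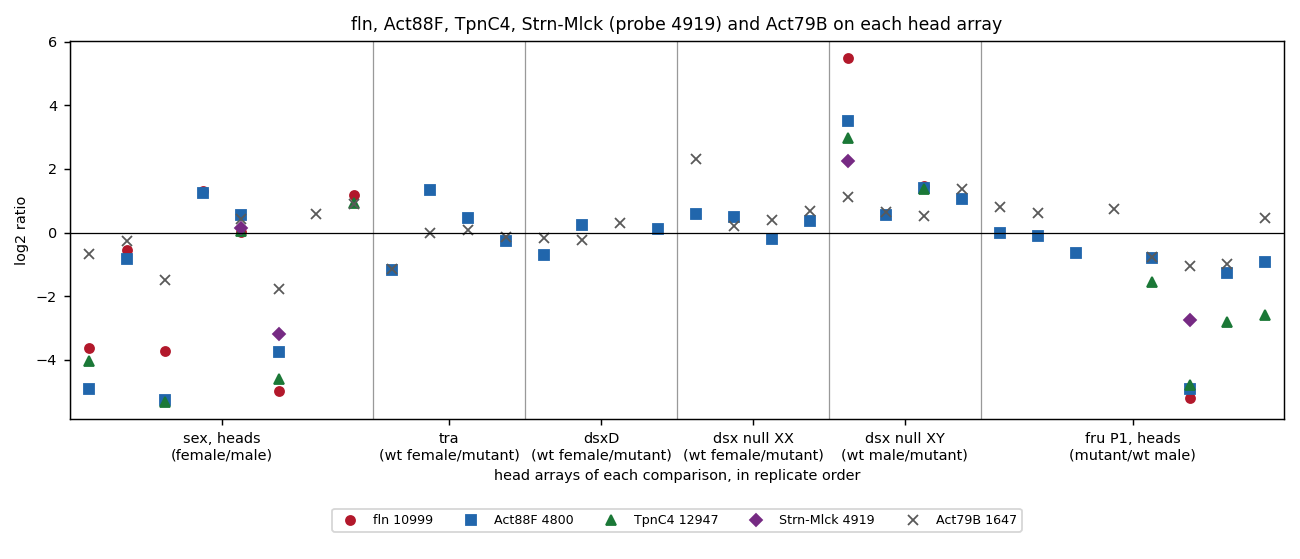
Log2 ratios of fln, Act88F, TpnC4, Strn-Mlck probe 4919 and Act79B (y axis) on each head array (x axis), in the direction named for each comparison (wt, wild type). On 5 arrays, 3 of the sex, 1 of the XY dsx null and 1 of the fru comparison, Act88F, fln and TpnC4 lie past 2 or -2 together, and Act79B is on the same side of 0.

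The same probes stood out on 1 array of each of 2 further comparisons. On array 1 of the XY dsx null comparison, fln read 5.49, the largest of 9157 values in that direction, with Act88F at 3.50 (rank 3), TpnC4 at 2.96 (rank 5) and Strn-Mlck probe 4919 at 2.23 (rank 11), all higher in the wild-type male. On array 6 of the fru comparison they read -5.21, -4.93, -4.80 and -2.75, lower in the mutant and within the 10 most extreme of 7242 values. Across the 5 arrays, between 12 and 21 probes passed a log2 ratio of 2 on the same side. The medians of the remaining muscle probes on these arrays were 0.12, 0.04, 0.04, -0.11 and 0.32, far nearer to 0. Act79B, the actin of tubular muscles, followed in sign on all 5 arrays, with -0.68, -1.50 and -1.76 on the sex arrays, 1.13 on the dsx null array and -1.05 on the fru array. In the CNS, by contrast, fln, Act88F and TpnC4 were measured on all 10 arrays and stayed within -0.44 and 0.81. As a result of this spread the mean sex ratios of fln (-1.48 ± 0.72, n = 7) and Act88F (-2.17 ± 0.82, n = 6) were not called, with adjusted p-values of 0.31 and 0.19. Without the arrays on which Act88F passed 4-fold, an alternative added after the values were seen, the sex comparison called 12 muscle probes of 33, all higher in females, beside 2.14% higher and 0.606% lower of all 7757 probes, with bt, sls and Pax no longer among them.

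The next question was which muscle genes differ between wild-type females and XX animals that lack tra, whose somatic cells follow the male pathway. Of 34 muscle probes tested, 6 were called higher in the female and 2 lower, beside 4.51% and 5.04% of all 9070 probes, and the median was 0.14 against 0.0010 for all. Mp20 was highest, at 0.83, 1.13, 0.77 and 0.66 on the 4 arrays, a mean of 0.85 ± 0.125 or 1.80-fold (adjusted p = 0.0050). Mlp60A stood at 0.79, 0.66, 0.67 and 0.37 (mean 0.62 ± 0.122, adjusted p = 0.020). Both genes were positive on every array and kept their calls without any 1 of them.

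Both probes of TpnC73F, a troponin C, were called, probe 11993 at 0.39, 0.51, 0.80 and 0.22 (mean 0.48 ± 0.131, adjusted p = 0.078) and probe 14713 at 0.63, 0.97, 0.48 and -0.06 (mean 0.50 ± 0.165, adjusted p = 0.15). Zasp66 probe 2607 stood at 0.22, 0.64, 0.83 and 0.33 (mean 0.50 ± 0.137, adjusted p = 0.077) and Pax probe 10118 at 0.59, 0.42, 0.55 and 0.24 (mean 0.45 ± 0.120, adjusted p = 0.071). Lower in the female were Strn-Mlck probe 2199 (-0.72, -0.37, -0.17 and -0.62, mean -0.47 ± 0.132, adjusted p = 0.086) and tn, a TRIM-family ubiquitin ligase of the Z-disc (-1.02, -0.75 and -0.09, mean -0.62 ± 0.194, n = 3, adjusted p = 0.13). Of the 16 values of the 4 positive probes, 15 were above 0. The calls of TpnC73F, Zasp66, Pax and Strn-Mlck were each lost in 2 or 3 of the 4 refits without 1 array, and each array was among those whose loss ended one (arrays 2 and 3 for TpnC73F probe 11993 and Zasp66, 1 to 3 for TpnC73F probe 14713 and Pax, 1, 2 and 4 for Strn-Mlck), with means of 0.35 to 0.51 for the positive probes and -0.50 to -0.39 for Strn-Mlck. For tn only the 3 arrays with a value entered the fit.

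Females were then set against XX animals with the dominant dsxD allele, which make the male form of DSX. Here 3 of 33 muscle probes were called higher in the female and 0 lower, beside 2.61% and 3.36% of all 9510 probes, with a median of 0.13 against -0.00019 for all. Mp20 was again among them, at 0.56, 0.67, 0.46 and 0.78 (mean 0.62 ± 0.102, 1.53-fold, adjusted p = 0.032). TpnC41C stood at 0.60, 0.72, 0.41 and 0.91 (mean 0.66 ± 0.114, 1.58-fold, adjusted p = 0.038). Gel, the actin-severing protein gelsolin, stood at 0.56, 0.83, 0.08 and 0.60 (mean 0.52 ± 0.139, adjusted p = 0.14). All 12 values were positive. TpnC41C lost its call without array 2 (0.64) and Gel without arrays 1, 2 or 4 (0.41 to 0.50), while Mp20 kept it throughout.

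Several genes called against tra pseudomales had values of the same sign here without a call, among them Zasp66 probe 2607 (0.38 ± 0.111, adjusted p = 0.17), Pax probe 10118 (0.49 ± 0.142, adjusted p = 0.16) and Strn-Mlck probe 2199 (-0.42 ± 0.122, adjusted p = 0.17). Conversely TpnC41C had 0.47 ± 0.176 against tra (adjusted p = 0.21). Tested directly, the tra and dsxD ratios differed for 0 of 33 muscle probes (1 with an unadjusted p under 0.05), beside 0.417% of all probes. With arrays of the same number as a block, 1 was called, Tm2 probe 8028, with the higher ratio against tra (difference 0.66 ± 0.127, adjusted p = 0.11), beside 0.895% of all probes. The wild-type females of both comparisons were of the same strain. The photoreceptor markers were lower in the wild type in both, 6 of 8 probes called against tra (list median -1.10) and 6 of 8 against dsxD (-1.19). Haemocyte markers were higher, 2 of 5 probes in each (0.36 and 0.25). Of 11 fat body probes 4 were higher and 1 lower against tra (0.34) and 3 higher and 1 lower against dsxD (0.32), the yolk protein genes Yp1, Yp2 and Yp3 among the higher ones. Of 8 glia probes 2 and 1 were higher (0.14 and 0.17), and of 8 cuticle and tracheal probes 2 were lower in each, with 1 higher against tra (-0.13 and 0.09). Of the neuron probes 0 of 10 and 1 of 9 were called (0.01 and 0.17). Whether these differences bear on the muscle probes was not tested.

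In dsx null animals, the comparison with the wild type was made in both chromosomal sexes. Against XX null animals, 6 of 33 muscle probes were higher in the wild-type female and 2 lower, where the background was 9.74% and 11.7% of 8595 probes (median 0.11 against 0.01). Against XY null animals, 7 of 32 were higher in the wild-type male and 2 lower, where it was 12.4% and 13.4% of 8210 (median 0.13 against 0.03). Both myosin light chains were higher in the wild type in both. Mlc1 stood at 0.49, 0.41, 0.56 and 0.36 in XX (mean 0.46 ± 0.090, adjusted p = 0.021) and at 0.34, 0.44, 0.42 and 0.52 in XY (mean 0.43 ± 0.095, adjusted p = 0.028), and kept its call without any 1 array in both. Mlc2 stood at 0.16, 0.12, 0.76 and 0.53 in XX (mean 0.40 ± 0.130, adjusted p = 0.11) and at 0.43, 0.50, 0.67 and 0.70 in XY (mean 0.57 ± 0.102, adjusted p = 0.013). All 16 light chain values were positive.

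Gel was lower in the wild type in both sexes, at -0.53, -0.29, -0.40 and -0.22 in XX (mean -0.36 ± 0.096, adjusted p = 0.060) and -0.56, -0.58, -0.72 and -0.55 in XY (mean -0.60 ± 0.096, 1.52-fold, adjusted p = 0.0083). The actin gene Act79B was higher, at 1.13, 0.63, 0.52 and 1.37 in XY (mean 0.91 ± 0.160, 1.88-fold, adjusted p = 0.013). In XX it stood at 2.32, 0.21, 0.40 and 0.67, so that its mean of 0.90 ± 0.320 (adjusted p = 0.13) fell to 0.42 without array 1. TpnC41C was the highest called probe in XX, at 1.46, 0.83, 0.93 and 0.61 (mean 0.96 ± 0.144, 1.94-fold, adjusted p = 0.0068), and in XY read 0.85, 0.52, -0.24 and 0.50 without a call (adjusted p = 0.18).

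The other calls were made in 1 sex. In XX, Mlp60A (0.60, 0.51, 0.26 and 0.24, mean 0.40 ± 0.103, adjusted p = 0.054) and Pax probe 10118 (0.50, 0.12, 0.28 and 0.27, mean 0.29 ± 0.099, adjusted p = 0.11) were higher and bt lower (-0.77, -1.0 and -0.26, mean -0.68 ± 0.163, n = 3, adjusted p = 0.052). In XY, bt read -1.32 and -0.75 on 2 arrays and 0.71 and 0.52 on the arrays of opposite dye. Prm (0.31 ± 0.108, n = 4), alpha-actinin Actn (0.33 ± 0.117) and Zasp52 probe 9892 (0.37 ± 0.120) were higher in the wild-type male with all 4 values positive and adjusted p-values of 0.11, 0.12 and 0.093, and Mlp84B lower (-0.53, -0.47, -0.26 and -0.23, mean -0.37 ± 0.105, adjusted p = 0.062). Act88F was called higher in XY at 0.56 to 3.50 (mean 1.63 ± 0.430, 3.09-fold, adjusted p = 0.051), and 1.00 without array 1. Calls lost on leaving out 1 array were, in XX, Mlc2 (without arrays 3 or 4, 0.27 and 0.35), Act79B (4, 0.98), Mlp60A (1, 0.33), Pax (1, 3 or 4, 0.23 to 0.30) and Gel (1, -0.30). In XY they were Prm and Actn (2, 3 or 4, 0.26 to 0.36), Zasp52 (3 or 4, 0.31 and 0.30) and Mlp84B (1 or 2, -0.32 and -0.34). With array 1 left out, XY gave 11 called muscle probes of 31, 10 higher and 1 lower, beside 11.4% and 13.2% of all 6870 probes.

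Tested directly, XX and XY ratios differed for 0 of 32 muscle probes (4 with an unadjusted p under 0.05), beside 0.751% of all probes. The photoreceptor markers were called lower in the wild type for 8 of 8 probes in both (list medians -1.83 and -1.38), and the neuron markers higher for 4 of 10 in XX (0.18) and 5 of 10 in XY (0.32). The fat body markers had 4 higher and 3 lower of 11 in XX (-0.12) and 8 lower of 10 in XY (-1.42). Glia markers had 1 higher and 1 lower of 7 in XX and 2 higher of 8 in XY. Haemocyte markers had 2 lower of 6 and 1 lower of 4. Cuticle and tracheal markers had 2 higher and 2 lower of 8 in XX and 1 higher and 2 lower of 7 in XY. Their part in the muscle ratios was not tested.

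**Figure D3:**
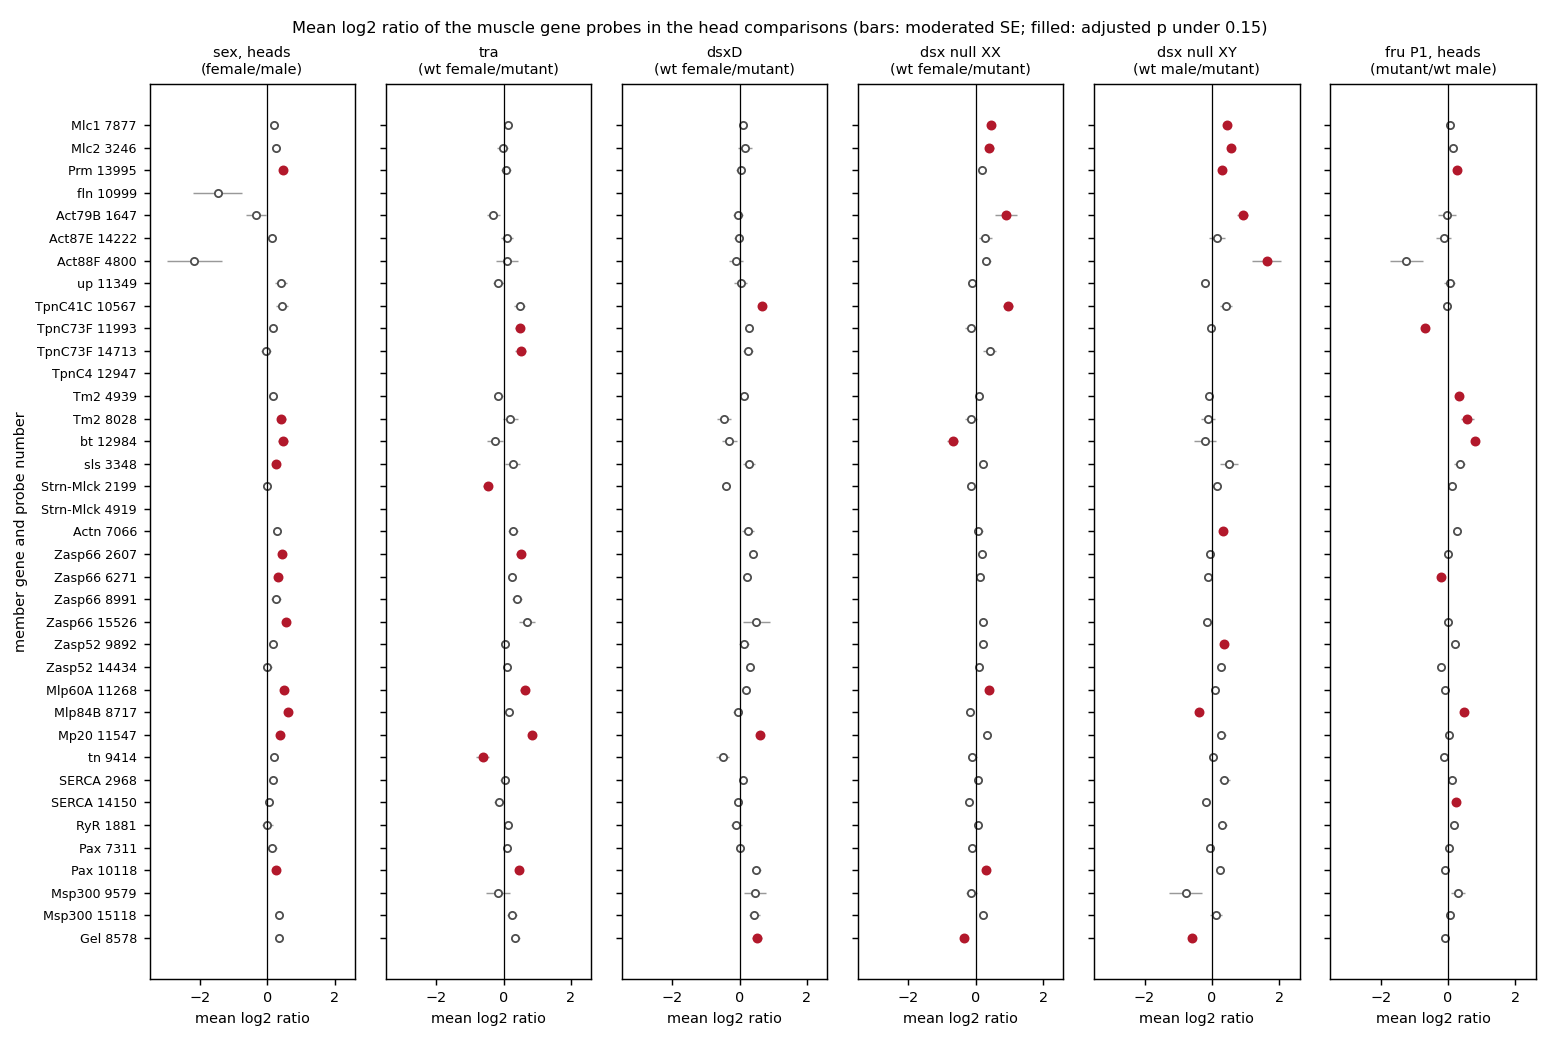
Mean log2 ratio of each muscle probe (points, y axis rows) in the 6 head comparisons, with bars of limma's SE and filled points for called probes (adjusted p under 0.15), and a vertical line at 0. Mp20 lies right of 0 with a call in the sex, tra and dsxD panels, Gel left of 0 with a call in both dsx null panels, and Act88F has the widest bars.

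The last head comparison asked which muscle genes differ in males without fru P1 products. Over all 8 arrays, 6 of 32 muscle probes were called higher in the mutant and 2 lower, beside 6.77% and 4.86% of 7352 probes, with a median of 0.05 against -0.0051 for all. The projectin gene bt was higher on all 8 arrays, between 0.31 and 1.40 with a median of 0.80 (mean 0.80 ± 0.114, 1.74-fold, adjusted p = 0.0030). Mlp84B was higher on all 8, between 0.26 and 0.85 with a median of 0.41 (mean 0.48 ± 0.081, adjusted p = 0.0087), as were Prm (0.02 to 0.60, mean 0.27 ± 0.078, adjusted p = 0.081) and SERCA probe 14150 (0.12 to 0.33, mean 0.23 ± 0.059, adjusted p = 0.051). Tm2 was called by both probes, 4939 with 7 of 8 values positive (mean 0.34 ± 0.081, adjusted p = 0.044) and 8028 with 6 of 8 (-0.48 to 1.53, mean 0.57 ± 0.199, adjusted p = 0.14). The dye orientations of probe 8028 did not overlap. It read 0.89, 0.92, 1.05 and 1.53 with the wild type in Cy3, and -0.30, -0.48, 0.52 and 0.45 with it in Cy5.

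Of the probes lower in the mutant, TpnC73F probe 11993 was negative on all 7 arrays with a value (-1.04 to -0.33, mean -0.68 ± 0.111, 1.61-fold, adjusted p = 0.0090). Zasp66 probe 6271 was negative on 7 of 8 (-0.55 to 0.01, mean -0.22 ± 0.075, adjusted p = 0.13). The calls of bt, Mlp84B, TpnC73F, Tm2 probe 4939 and SERCA were kept without any 1 array. Tm2 probe 8028 lost its call in 6 of 8 refits (all but those without arrays 3 or 4, 0.43 to 0.59), Zasp66 in 6 (all but those without 2 or 8, -0.24 to -0.17) and Prm in 1 (without array 5, 0.24). Glia markers were lower in the mutant for 3 of 8 probes (list median -0.23), and photoreceptor and cuticle markers higher for 3 of 8 each (0.29 and 0.27). Haemocyte markers were lower for 2 of 4 (-0.25), namely Pxn and Ppn. Their part was not tested.

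The 2 allele combinations, each with its own wild-type strain, gave different muscle ratios. The difference was called for 11 of 31 muscle probes, and for 23.9% of all 6821 probes. Act79B was higher in fru4-40/frup14 at 0.79, 0.63 and 0.72, while in fruw12/frucham5 it read -0.78, -1.05, -0.98 and 0.47 (difference 1.30 ± 0.318, adjusted p = 0.025). For the other 10 probes the ratio was lower in fru4-40/frup14. The troponin T gene up read -0.13, -0.22, -0.64 and -0.52 in fru4-40/frup14 and 0.39, 0.64, 0.02 and 0.87 in fruw12/frucham5, with no overlap (difference -0.86 ± 0.191, adjusted p = 0.014). Zasp52 differed in both probes, by -0.64 ± 0.140 in probe 9892 (-0.11 against 0.53, adjusted p = 0.013) and by -0.62 ± 0.144 in probe 14434 (-0.58 against 0.05, adjusted p = 0.020).

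Msp300, a nesprin that anchors muscle nuclei, showed a difference in probe 9579 of -1.11 ± 0.274 (-0.27 against 0.85, adjusted p = 0.023), and tn one of -0.59 ± 0.148 (-0.41 against 0.18, adjusted p = 0.025). The remaining called differences were those of Act87E, a muscle actin (-1.02 ± 0.344), Mlp60A (-0.55 ± 0.182), RyR (-0.47 ± 0.191) and both Pax probes (-0.37 ± 0.128 in 7311 and -0.48 ± 0.123 in 10118), with adjusted p-values of 0.027 to 0.14. Their values in fru4-40/frup14 averaged -0.64, -0.38, -0.07, -0.16 and -0.34, and in fruw12/frucham5 0.38, 0.18, 0.40, 0.20 and 0.14. Leaving out array 3 reduced the 11 called differences to 7. By contrast, bt (0.82 and 0.78), Mlp84B (0.48 and 0.49) and TpnC73F probe 11993 (-0.76 and -0.63) had means of the same sign and a call in each combination on its own.

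**Figure D4:**
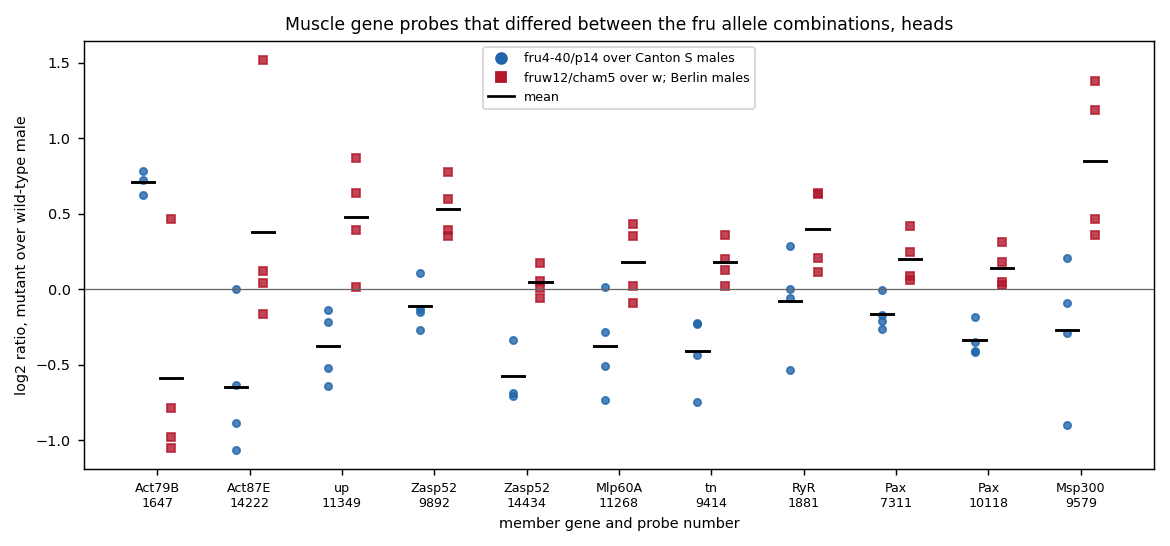
Log2 ratio (mutant over wild-type male, y axis) of the 11 muscle probes whose ratio differed between the fru allele combinations in heads, with 1 point per array, circles for fru4-40/frup14 over Canton S, squares for fruw12/frucham5 over w; Berlin, and bars for means. Act79B is the only one of them with the higher mean in fru4-40/frup14 (0.71 against -0.59).

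Taken alone, fru4-40/frup14 gave 11 called muscle probes of 31, 4 higher and 7 lower (9.74% and 10.5% of all probes), and fruw12/frucham5 gave 15 of 35, 12 higher and 3 lower (8.76% and 8.21%). TpnC4 could be tested only in the latter, at -1.55, -4.80, -2.82 and -2.59, a mean of -2.94 ± 0.416 or 7.67-fold lower in the mutant (adjusted p = 0.0055). It had a value on 11 of 32 head arrays and on none of the fru4-40/frup14 arrays. Spots entered only where they passed the background filter, and signal levels are unknown. The call and the fold can thus not be told apart from detection. Act88F was lower there as well (-0.79, -4.93, -1.28 and -0.92, mean -1.98 ± 0.599, adjusted p = 0.091), and read -0.02, -0.11 and -0.64 in fru4-40/frup14. The 2 probes of TpnC73F went opposite ways in fruw12/frucham5, with 11993 at -0.63 ± 0.131 and 14713 at 0.48 ± 0.10 and adjusted p-values of 0.026 for both. The same 2 probes were both higher in wild-type females than in tra pseudomales. Without array 6, TpnC4 averaged -2.32 over the remaining 3 arrays.

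In the CNS no muscle probe was called. Between Canton S females and males, 0 of 28 were called and 0 had an unadjusted p under 0.05 in limma, beside 0.0241% higher and 0.0361% lower of 8307 probes, and the mean log2 ratios lay between -0.26 and 0.23 (median 0.04). Between fru mutant and wild-type males, 0 of 28 were called and 0 had an unadjusted p under 0.05, beside 0.187% and 0.082% of 8538 probes, with means between -0.27 and 0.25 (median -0.03). These counts are those of a small calling share among all probes, and they do not show that the muscle genes were alike. Heads and CNS were compared directly in Canton S, where 0 of 25 muscle probes differed in the sex ratio (2 with an unadjusted p under 0.05, 0.13% of all probes called). For fru, 1 of 24 differed beside 0.973% of all probes, namely bt, at 0.80 in heads and 0.01 in the CNS (difference 0.78 ± 0.198, adjusted p = 0.13). The call of bt was lost without any 1 of head arrays 1, 2, 3, 5, 6 or 8 or of CNS arrays 1, 2 or 3.

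Several CNS ratios differed in sign between the dye orientations. Prm read -0.75 and -0.37 on the sex arrays with the female in Cy5 and 1.07 and 0.98 on those with the female in Cy3. On the fru arrays Prm read -1.02, -0.85 and -1.18 with the wild type in Cy3 and 0.85, 0.55 and 0.06 with it in Cy5. Actn behaved likewise, at -0.68, -0.24, 0.52 and 0.54 and at -1.13, -0.75, -0.76, 0.76, 0.55 and 0.40. Of the 25 muscle probes with every value, the 2 orientations did not overlap for 15 in the sex and 15 in the fru comparison, against 62.7% and 65.6% of all such probes. In fru the orientation coincides with the allele combination and its control strain, so that dye, allele and strain cannot be told apart. In the 4-array head comparisons 15 to 20 muscle probes did not overlap between orientations (55.2% to 67.4% of all probes). With 8 arrays the count was 2 of 26 in the sex and 5 of 24 in the fru comparison (12.2% and 13.5%). Fewer arrays separate more often even without a dye effect, so counts from different numbers of arrays cannot be compared.

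**Figure D5:**
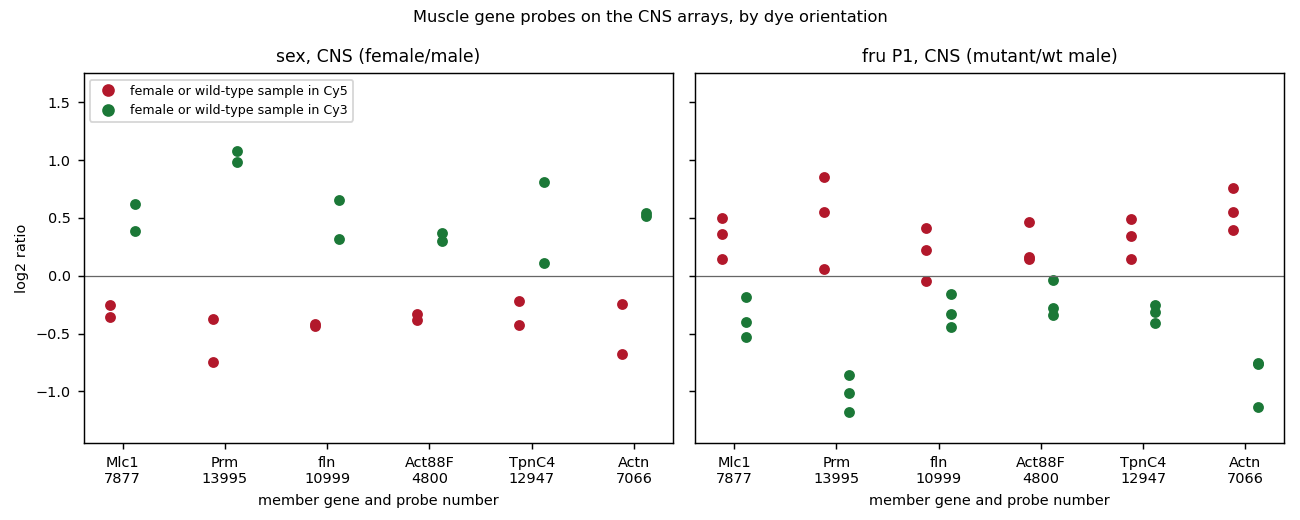
Log2 ratio (y axis) of 6 muscle probes on each CNS array, left for the sex and right for the fru P1 comparison (wt, wild type), coloured by the dye of the female or wild-type sample. Prm and Actn are apart by colour in both panels, Prm at -0.75 and -0.37 against 1.07 and 0.98 in the left one.

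Across all comparisons, 25 probes of 21 genes were called at least once, 47 calls in all, and 7 probes were called in 3 or more comparisons (Prm, bt, Mlp60A, Mlp84B, Mp20, Pax probe 10118 and Gel). The share of all probes called so often was not counted, so these counts have no background beside them. The dsx null comparisons alone called 21.5% (XX) and 25.7% (XY) of all probes. Several comparisons also used Canton S as the wild type. The sign differed between comparisons for some of the 7 probes, in part because fru ratios place the mutant first. Mlp84B was higher in females than males and higher in fru mutants than wild-type males, and lower in wild-type males than in XY dsx null animals. The genes fln, Act87E, up, TpnC4, RyR and Msp300 were called in no comparison over all of its arrays, and Act87E, up, TpnC4, RyR and Msp300 only within a fru combination or in the difference between them.

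Other genes of muscle were counted in lists by function, beside the same shares of all probes as above. In a list of further genes named with the sarcomere and its assembly, CG5023, a calponin-like gene, was higher in the wild type than in tra (0.69 ± 0.145), dsxD (0.67 ± 0.10) and XX dsx null animals (0.60 ± 0.127). It was also higher in wild-type males than in XY dsx null animals (0.71 ± 0.111). That list had 3 of 15 probes called higher against tra, 3 of 15 against dsxD, 4 of 15 against XX null and 6 of 14 against XY null, with 0, 0, 0 and 1 lower. Between the sexes 1 of 15 was higher (Mf, myofilin of the thick filament, 0.34) and 1 lower (Cals, -0.32, which encodes a calsyntenin known from neurons and is not known as a sarcomere protein). In fru heads 1 of 15 was called (Lmpt, 0.37).

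Muscle attachment and dystrophin complex genes had 0 higher and 1 lower of 13 between the sexes, 0 and 1 of 15 against tra, 2 and 0 of 15 against dsxD, 2 and 4 of 16 against XX null, 4 and 1 of 14 against XY null, and 1 and 1 of 13 in fru. The last included Dg, which encodes dystroglycan, at -1.18 ± 0.091 (adjusted p = 5.88e-05). The tendon transcription factor sr was higher in the wild type than in dsxD animals (0.90 ± 0.155, n = 3). Membrane excitation and calcium genes had 0 of 12 called between the sexes, 0 of 17 against tra and 0 of 14 in fru, and 1 of 14, 2 of 13 and 4 of 15 higher in the wild type in the dsxD, XX and XY comparisons. Muscle energy genes had 1 of 17 called between the sexes, 0 of 18 against tra and dsxD, and 1 of 17 in fru, with 7 of 18 and 6 of 18 in XX and XY, in both directions. Non-muscle actin and myosin genes had 0 of 6 called between the sexes, 0 of 5 against tra and dsxD, 2 of 5 higher in the wild type against each dsx null (Mlc-c, a non-muscle light chain, among them) and 1 of 5 in fru. Transcription factors of muscle development had 1 of 4 called lower in females (salm, -0.40), 0 of 4 against tra and dsxD, 2 of 2 higher in the wild type than in XX null and 0 of 1 in XY, and 2 of 3 lower in fru. None of these lists had a call in the CNS.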

How the data were processed

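Each of the 42 two-colour arrays of spotted oligonucleotides compared 2 RNA samples, directly labelled total RNA for heads and amplified RNA for the CNS. The authors scanned the slides with GenePix, removed poor spots by eye, kept spots with more than 75% of pixels above background and normalized by lowess in Bioconductor, and deposited log2 ratios only. Software versions are not given in the sources used here. Spot intensities and levels are unknown, so depth is expressed as the number of probes with a value (5881 to 11900 per array), and the number of arrays limits the precision.

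Groups and ratio directions came from the dye and sample given for each channel. Some titles of the fru arrays conflict with those channel labels, which were used. Probes were named by the platform's probe table with current symbols. The muscle genes and all lists were chosen with earlier results of these data known. Every listed gene with a probe was accounted for, called ones with values, and of the other lists at most 3 called probes per comparison were named.

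Each comparison was fitted alone in limma 3.58.1 (R 4.3.3), over the probes measured on 3 or more of 4, 5 or more of 6, or 6 or more of 8 arrays, with Benjamini-Hochberg adjustment over all of them. Differences between 2 comparisons were fitted likewise on the arrays of both. The labels call the samples independent biological samples. The fits were tested on simulated data.

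Same-numbered arrays of tra and dsxD deviated together (r of 0.18 to 0.42 over probes), as did those of XX and XY dsx null (0.27 to 0.43). Arrays of another number with the same dye orientation did so too (0.39 to 0.48 and 0.17 to 0.40), and those of opposite orientation deviated apart. A shared number can thus not be told apart from a shared dye orientation, and the replicate block is an alternative fit, not a test of known pairs. Heads and CNS did not pair, and the block was run there as well. Alternatives were a dye orientation term, a value on every array, scaling or centring of arrays, an ordinary t-test in both directions and stricter thresholds. Further ones were single strains or alleles, the replicate block and each array left out. Leaving out the arrays on which Act88F passed 4-fold was added after the values were seen.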

Additional observations from a re-analysis of the deposited data

Results flagged for a closer look

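The ratios of 11 of 31 muscle probes differed between the 2 fru allele combinations in heads by limma's test of the difference at an adjusted p under 0.15. In the same test 23.9% of all 6821 probes were called. Differences are given as fru4-40/frup14 minus fruw12/frucham5 on the log2 scale. The difference was 1.30 for Act79B, -1.02 for Act87E, -0.86 for up, -0.64 and -0.62 for Zasp52 probes 9892 and 14434, -0.55 for Mlp60A, -0.59 for tn, -0.47 for RyR, -0.37 and -0.48 for Pax probes 7311 and 10118, and -1.11 for Msp300 probe 9579. Allele combination and control strain cannot be told apart in these values. Of 24 muscle probes, only bt was called for a difference between fru heads and fru CNS, beside 0.973% of all probes. Its ratio was higher in heads by 0.78 (limma's test of the difference, adjusted p = 0.13). The call was lost in several refits without 1 array and with the replicate block.

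A single array lay far from the others of its group in 3 of 53 groups of values, where chance gives about 1 in 20. In the sex comparison of heads, array 1 read 0.12 for Zasp66 probe 2607, below every other array of both strains. In the sex comparison of the CNS, the median over the muscle probes was -0.15 on array 1. In the XY dsx null comparison, array 3 read -0.72 for Gel.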

How the results depend on the processing

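No called muscle probe changed sign under any alternative run, and in refits of single called probes 506 kept the call and 151 lost it. The count of called muscle probes moved by over 1.5 times as follows. At an adjusted p under 0.05 it was 7 between the sexes in heads, 2 for tra, 2 for XX dsx null, 4 for XY dsx null and 4 for fru heads. Of all probes, 3.04%, 5.27%, 9.74%, 12.7% and 4.38% were called at that threshold. The count was 0 for fru heads with over 2-fold change added, beside 0.449% of all probes. The ordinary t-test run here was not the paper's, which was directional for tra and dsxD and used another FDR estimate. It took both directions, with Benjamini-Hochberg adjustment. The count by it was 0 for tra, 0 for dsxD and 4 for XX dsx null, beside 1.41%, 1.8% and 10.9% of all probes. With a dye orientation term the count was 15 for dsxD, 14 for XX and 20 for XY dsx null and 1 for fru CNS. There, 20.4%, 35.0%, 50.5% and 5.6% of all probes were called. With a value required on every array dsxD gave 6, beside 7.96% of all probes. Canton S alone gave 0 between the sexes (0.415% of all probes), and fruw12/frucham5 alone gave 15 in heads (17%). In the CNS the fru combinations alone, each in 1 dye orientation, gave 17 of 25 for fruw12/frucham5 and 14 of 29 for fru4-40/frup14, the latter with a list median of 0.075, where 53.8% and 60% of all probes were called. Leaving out 1 array gave 8 to 15 between the sexes, 3 to 8 for tra, 1 to 5 for dsxD, 4 to 8 for XX, 6 to 11 for XY and 5 to 7 for fru heads. Of all probes, these refits called 4.6% to 16.4% between the sexes, 6.13% to 10.9% for tra and 3% to 7.09% for dsxD. They called 12.6% to 21.2% for XX, 13.7% to 24.6% for XY and 8.38% to 11.5% for fru heads. The list median then ran from 0.20 to 0.28 between the sexes, 0.08 to 0.24 for tra, 0.04 to 0.22 for dsxD, 0.12 to 0.17 for XX, 0.07 to 0.25 for XY and 0.01 to 0.09 for fru heads, and crossed 0 in the CNS (-0.06 to 0.10 between the sexes, -0.05 to 0.0027 for fru). Among tests of differences, leaving out 1 array gave 7 to 11 between the fru combinations and 0 to 2 between fru heads and CNS, and without the arrays on which Act88F passed 4-fold the latter was 0. With same-numbered arrays as a replicate block, the difference between tra and dsxD was called for 1 muscle probe and that between fru heads and CNS for 0. No other count of called differences changed. The cause of these changes was not tested. With 4 arrays, small ratios lie within the spread between arrays, and levels are unknown.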
